A study of Mus musculus with 144 samples.

Results

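The genes described are those of the cytosolic ribosome. Protein-coding genes were taken when their symbol began with Rpl or Rps followed by a number, together with Rpsa, Rplp0, Rplp1 and Rplp2. The rule found 97 of the 55364 genes in the table. Of these, 46 encode proteins of the large subunit and 31 encode proteins of the small subunit, and these 77 are called core genes here. The other 20 were 9 paralogs or retrocopies of ribosomal protein genes, 10 genes of the S6 kinase families and Rps19bp1, whose product binds Rps19. The rule leaves out Fau, which encodes a ribosomal protein fused to a ubiquitin-like protein and is given separately.

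RNA was sequenced from single wells, each sorted to hold 1 cell, of the retina of Iba1-EGFP mice on a C57BL/6 background aged 20 to 22 months. Iba1-EGFP marks microglia, the resident macrophages of the retina, but the same promoter is also active in other macrophages. There were 54 wells from uncrushed retina, 36 from day 2 after crush of the optic nerve and 54 from day 4, spread over 3 plates of 48 wells. For 18 wells of plate 1 the title gives day 4 but the treatment tag gives day 2, and the title was followed. Animals are not named, so a group counts as 1 sample, differences are given without a test, and each SD is over wells. Each group had its own rows on every plate, so row and group cannot be told apart.

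The ribosome joins a small subunit, which reads the messenger RNA, to a large subunit, which forms peptide bonds and holds the tunnel through which the new protein leaves. Most of its proteins are needed in nearly equal amounts. The messenger RNAs of ribosomal proteins share a start made of a cytosine and a run of pyrimidines, the TOP motif. Through this motif TOR kinase signalling controls their translation. Mammalian genomes also hold many processed copies of these genes, so short reads can often be placed at several loci.

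The sequences of the small subunit gene Rps27 and of its copies are shown first because they limit what the read values mean. The first 120 bases of the coding sequence are given 5′ to 3′ from the reference transcripts, and capitals mark bases that differ from Rps27. Rps27 lies at chr3:90212522-90213651 on the minus strand of GRCm38.p6, Rps27rt at chr9:114982366-114982739 on the minus strand and Rps27l at chr9:66946086-66949516 on the plus strand.
Rps27: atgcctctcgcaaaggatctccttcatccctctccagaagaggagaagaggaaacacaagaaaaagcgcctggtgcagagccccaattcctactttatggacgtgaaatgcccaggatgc
Rps27rt: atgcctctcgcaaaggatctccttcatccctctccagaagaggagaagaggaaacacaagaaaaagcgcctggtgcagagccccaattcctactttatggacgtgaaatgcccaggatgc
Rps27l: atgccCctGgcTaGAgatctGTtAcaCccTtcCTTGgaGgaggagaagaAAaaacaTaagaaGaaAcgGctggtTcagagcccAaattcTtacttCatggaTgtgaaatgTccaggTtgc
Over all 255 coding bases Rps27rt differed from Rps27 at 0 positions, whereas Rps27l differed at 61 positions, an identity of 76.1%. Reads from the coding sequence therefore cannot be assigned to Rps27 or Rps27rt, but Rps27l has a sequence of its own.

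Start sites were examined for 57 of the 77 core genes, those matched by symbol in the RefSeq promoter table (GRCm38.p6). In windows of 30 bases centred on the start site, the letters CTTTC stood on the gene's strand in 16 of 67 windows of core genes (23.9%), against 4.05% of 32851 windows of all genes. The reverse complement GAAAG stood in 4.48% of core windows and 3.60% of all windows. In the windows shown, capitals mark CTTTC where it first occurs from the 5′ end. Of the 8 core genes named for day 4 below, 7 had a window, and 4 of these are shown because they include both directions of difference. They are Rpl38 at chr11:114668565-114668594 (plus strand), Rps27 at chr3:90213634-90213663 (minus strand), Rplp0 at chr5:115559452-115559481 (plus strand) and Rps9 at chr7:3704026-3704055 (plus strand).
Rpl38: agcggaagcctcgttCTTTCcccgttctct
Rps27: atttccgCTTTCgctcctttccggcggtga
Rplp0: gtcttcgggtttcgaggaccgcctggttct
Rps9: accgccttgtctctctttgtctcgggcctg
Of the 7 windows, those of Rpl38, which was higher at day 4, and Rps27, which was lower, held the letters. The Rps27 window held CTTTC again further 3′, in small letters. A match is a description of the sequence and not a mapped site.

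Depth was recovered from the deposited FPKM values, which are reads scaled by exon length and by assigned reads. There were 88 deep wells, with 60079 to 8065060 reads, and 56 shallow wells, with 643 to 14205. The deep wells comprised 39 uncrushed, 25 day 2 and 24 day 4 wells, and only 2 of the day 4 deep wells were on plate 3. All results are from deep wells unless stated. At 10 reads or more, 0 of 39 uncrushed, 2 of 25 day 2 and 1 of 24 day 4 deep wells held none of 11 microglia markers. At least 3 of 10 neutrophil markers were present in 1, 6 and 3 deep wells, and at least 3 of 13 rod photoreceptor markers in 4, 1 and 1. The summed neutrophil markers ran from 0 to 106118 per 1000000 reads in uncrushed wells, 0 to 91683 at day 2 and 0 to 65170 at day 4, and the rod markers from 0 to 5724, 0 to 72744 and 0 to 101185.

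Core ribosomal protein genes took a smaller part of a deep well's reads after crush. They took 0.437% to 14.8% of reads in uncrushed wells (median 3.90%), 0.106% to 9.75% at day 2 (median 3.29%) and 0.239% to 6.04% at day 4 (median 2.50%). The groups overlapped widely, and what set uncrushed retina apart was its upper end: 7 of 39 uncrushed, 1 of 25 day 2 and 0 of 24 day 4 wells reached 8%. The means were 4.86 ± 3.54% (SD, n = 39 wells) in uncrushed retina, 3.27 ± 2.31% (n = 25) at day 2 and 2.69 ± 1.36% (n = 24) at day 4. Day 4 minus uncrushed was -2.16 percentage points and day 2 minus uncrushed was -1.59, both less than the SD over uncrushed wells. The day 4 difference was -1.55, -2.09 and -2.92 within plates 1, 2 and 3, and the day 2 difference was -1.64, -1.06 and -1.701.

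**Figure D1:**
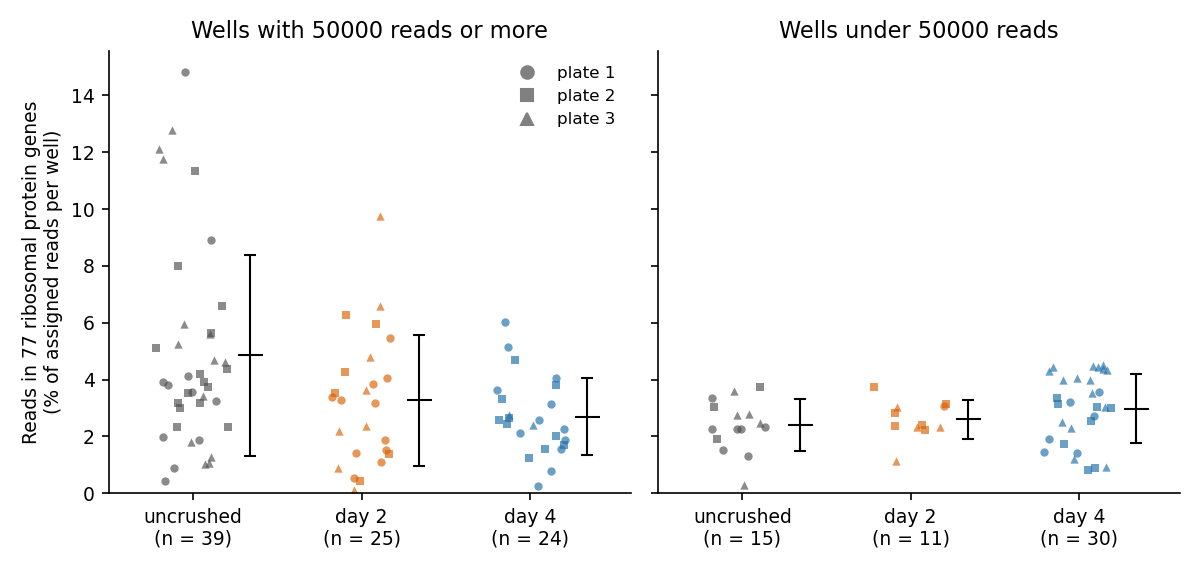
Percent of assigned reads in the 77 core ribosomal protein genes (vertical axis) for each well of uncrushed, day 2 and day 4 retina (horizontal axis), with deep wells on the left and shallow wells on the right. Marker shapes give the plate, and the bar is the mean ± SD over wells. In deep wells the uncrushed group reaches 14.8% and the day 4 group 6.04%, while the shallow wells show no such order.

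The order depended on which wells were counted. Shallow wells averaged 2.39 ± 0.91% in uncrushed retina (SD, n = 15 wells), 2.599 ± 0.68% at day 2 (n = 11) and 2.97 ± 1.22% at day 4 (n = 30), the opposite order to deep wells, with day 4 minus uncrushed at 0.20, -0.58 and 1.14 percentage points within plates 1, 2 and 3. Deep wells with all 11 microglia markers averaged 2.82 ± 1.78% in uncrushed retina (n = 7), 2.17 ± 0.87% at day 2 (n = 7) and 2.21 ± 0.71% at day 4 (n = 9), a gap well inside the SD. With wells of 3 or more neutrophil or rod markers left out, the means were 5.06%, 4.04% and 2.74%. Some wells left out were rich in microglia markers. The 4 uncrushed wells with 3 or more rod markers held 4 rod and 5 to 11 microglia markers each. Their summed rod markers ran from 112 to 5724, on the scale used above, and their summed microglia markers from 21477 to 71147. Every later setting without neutrophil or rod wells leaves these wells out too. The 6 day 2 wells with neutrophil markers ran from 0.106% to 1.503% and averaged 0.846%, below the day 2 median of 3.29%. The 3 such day 4 wells lay at 0.239%, 0.782% and 6.04%, the last being the highest day 4 well, and the 1 uncrushed well at 0.437%. The 6.04% well held 3 neutrophil and 7 microglia markers, with sums of 80.2 and 16662. In the 0.239% and 0.782% wells the neutrophil sums were 65170 and 10434, and the microglia sums 25.8 and 108. The day 2 wells had neutrophil sums of 20822 to 91683 and microglia sums of 77.8 to 12841. In the uncrushed well these were 106118 and 841. The part of neutrophil RNA in the group means was not tested. Across uncrushed wells the share was lower where more microglia markers were present (Spearman rho -0.53 over 39 wells of 3 plates that share the group and differ in depth), while rho was -0.05 over 25 day 2 wells and -0.12 over 24 day 4 wells.

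Large and small subunit genes were both lower in share after crush. Large subunit genes took 2.66%, 1.84% and 1.602% of reads in uncrushed, day 2 and day 4 wells, and small subunit genes took 2.19%, 1.43% and 1.09%. The log2 ratio of summed FPKM of large over small subunit genes had medians of 0.57, 0.51 and 0.45, with ranges of -1.27 to 1.49, -2.38 to 1.22 and -0.20 to 9.26. The means were 0.47 ± 0.52, 0.37 ± 0.70 and 0.93 ± 1.84. The day 4 mean was set by 1 well of plate 3, at 9.26, in which 3 of the 77 genes were found, and day 4 minus uncrushed was -0.01 on plate 1 and -0.04 on plate 2.

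More of the core genes were found per well after crush, when wells were also deeper. A gene was counted as found at 10 reads or more. Uncrushed wells held 4 to 76 of the 77 genes (median 49), day 2 wells 6 to 77 (median 60) and day 4 wells 3 to 77 (median 69). When each well was thinned to 50000 reads, the means were 35.5 ± 14.9, 35.3 ± 17.2 and 36.5 ± 15.8 genes, so the groups then differed by far less than the SD. Median reads per deep well were 507813, 657516 and 853209.

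**Figure D2:**
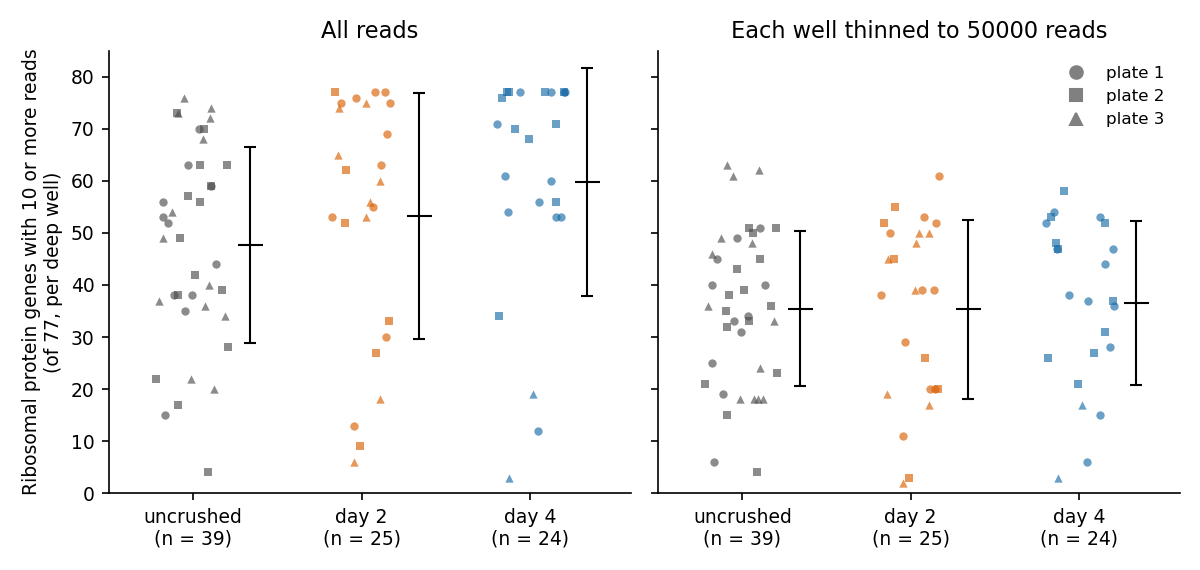
Number of the 77 core genes with 10 or more reads in each deep well, by group, with all reads (left) and after thinning every well to 50000 reads (right). Bars are the mean ± SD over wells and marker shapes give the plate. The means of 47.6, 53.2 and 59.7 genes on the left become 35.5, 35.3 and 36.5 on the right.

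Core genes were found in more of the deeper wells and were lower where found, as were most genes. At day 4, against uncrushed retina, 70 of 77 core genes were found in a larger share of wells (40 of 77 after thinning), while 71 of 77 had a lower median FPKM among the wells in which they were found. Of all 8211 genes tested, 85.2% were found in a larger share of day 4 wells (43.3% after thinning), and 82.9% of the 6718 found in both groups were lower where found (difference from the core genes not tested). The median of these levels over the 77 genes was 131 FPKM at day 4 and 226 FPKM in uncrushed retina. At day 2, 59 of 77 were found in a larger share than in uncrushed retina (34 after thinning) and 64 of 77 were lower where found, with a median of 163 FPKM at day 2. Over all genes tested these shares were 72.8%, 43.4% after thinning and 68.4%. For this reason each gene is given on 2 scales: the difference of mean log2(FPKM + 1), which counts wells at 0 heavily, and the log2 ratio of mean FPKM, which follows the highest wells.

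At day 4, 17 of the 77 core genes were higher than in uncrushed retina by 1 or more on the mean log2 scale, and 5 were lower by 1 or more. Of all 8211 genes tested, those that reached FPKM 1 in no fewer than 10% of deep wells, 34.3% were higher and 0.962% were lower by that much. The core shares were 22.1% higher and 6.49% lower. Among the 1360 genes at or above the level of the lowest core gene, 46.5% were higher and 5.07% lower, so the share lower was near that of genes at a like level. The median core difference was 0.17, against 0.65 over all genes tested. On the ratio of means the core median was -1.003, against 0.30 over all genes tested, and 32 core genes lay above 0 on the first scale and below 0 on the second. Within plates the core median difference was 0.69 on plate 1, 0.83 on plate 2 and -3.96 on plate 3, where day 4 has 2 deep wells. Without plate 3, 32 core genes were higher by 1 or more and 2 were lower. The number lower was 11 without plate 1 and 21 without plate 2. Over all genes tested the median was 0.83 without plate 3, 0.65 without plate 1 and 0.43 without plate 2. Shares of all genes past 1 are not given for these settings. Without wells of 3 or more neutrophil or rod markers the core median was 0.46, against 0.72 over all genes tested.

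Rplp0 (chr5:115559467-115563727, plus strand), among the genes with the largest differences at day 4, encodes the base of the stalk that recruits elongation factors. It ran from 3.67 to 4599 FPKM at day 4 (median 771), and from 0 to 3509 in uncrushed wells (median 214). It was found in 23 of 24 day 4 wells (95.8%, exact Clopper-Pearson 95% interval 78.9 to 99.9) and 21 of 39 uncrushed wells (53.8%, 37.2 to 69.9), and these intervals cover counting error only. The ranges overlap, with the low wells mostly uncrushed, and the median where found was 789 FPKM at day 4 and 1044 FPKM in uncrushed wells. After thinning to 50000 reads it was found in 21 of 24 and 20 of 39. Its difference was 2.99 on the mean log2 scale (9.15 ± 2.03 at day 4 and 6.16 ± 4.29 in uncrushed wells), with a ratio of means of 0.51, and 5.15, 3.66 and -2.17 within plates 1, 2 and 3.

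Rps2 (chr17:24718116-24721929, plus strand), a protein at the entry of the messenger RNA channel, ran from 0.723 to 2142 FPKM at day 4 (median 333) and from 0 to 961 in uncrushed wells (median 18.8). The ranges overlap. Its difference was 2.91 and its ratio of means 1.22. Rpl38, a large subunit protein known in mouse embryos for its part in translating Hox messenger RNAs, differed by 2.81 and had a ratio of means of 0.42. Rpl26, at the rim of the exit tunnel, differed by 2.80 with a ratio of 0.60. Rplp0, Rps2, Rpl38 and Rpl26 were higher at day 4 on plates 1 and 2. On plate 3 Rpl26 was higher and the other 3 lower. Over all 17 genes higher by 1 or more, 12 had a ratio of means above 0, and 4 of these were higher within every plate: Rpl8, Rpl15, Rpl6 and Rpl26.

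**Figure D3:**
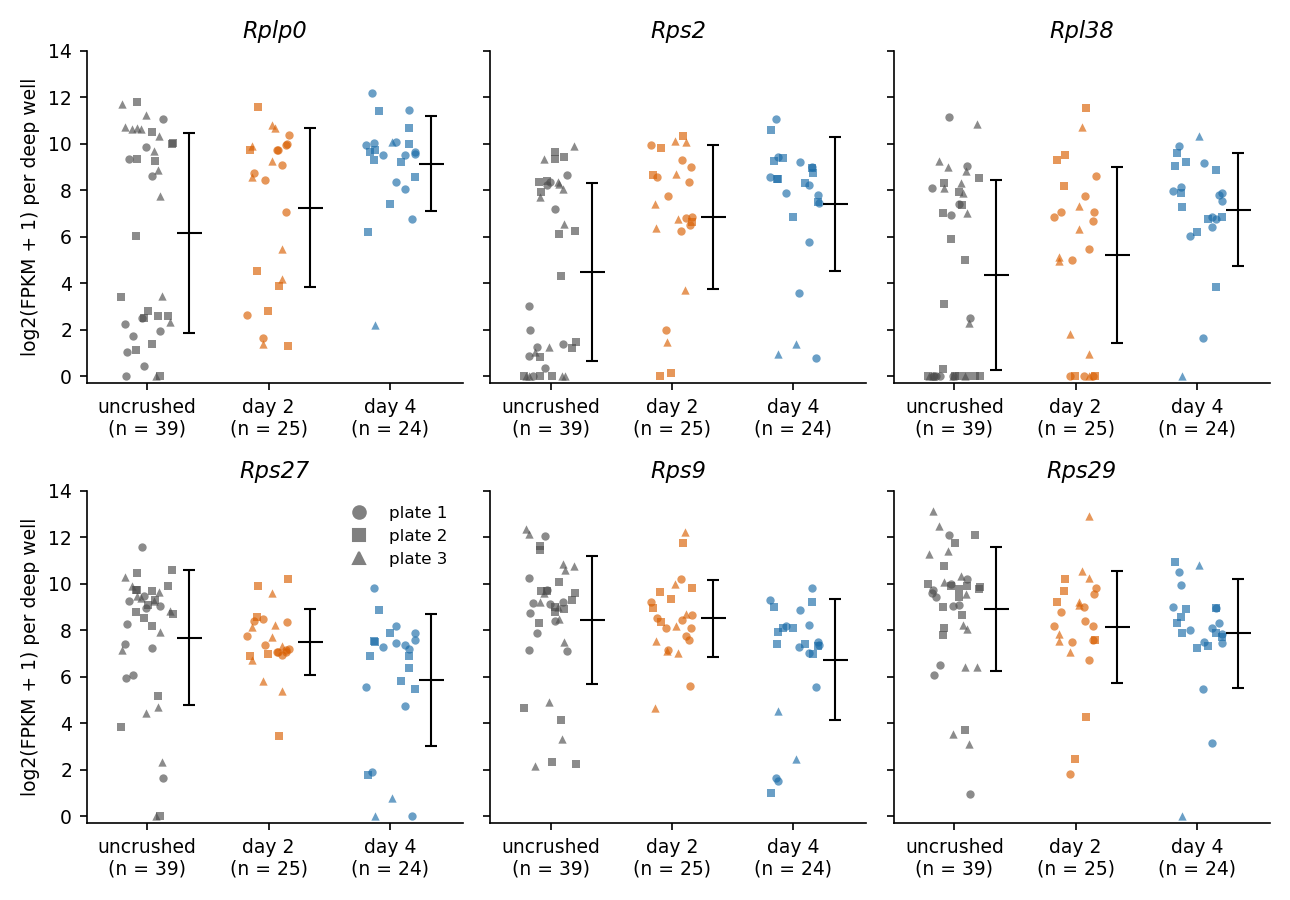
log2(FPKM + 1) per deep well for 3 core genes with high differences at day 4 (top) and 3 with low differences (bottom), by group. Marker shapes give the plate and bars the mean ± SD over wells. Fewer day 4 than uncrushed wells lie near 0 for Rplp0, Rps2 and Rpl38, while the highest wells of Rps27, Rps9 and Rps29 reach 911, 902 and 1941 FPKM at day 4 and 3025, 5188 and 9047 FPKM in uncrushed retina.

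The genes lower at day 4 that are named here were also lower where found. So were 71 of 77 core genes and 82.9% of the 6718 tested genes found in both groups. Rps27, a zinc finger protein of the small subunit, ran from 0 to 911 FPKM at day 4 (median 131) and from 0 to 3025 in uncrushed wells (median 455). It was found in 79.2% of day 4 and 79.5% of uncrushed wells, and where found its median was 163 FPKM at day 4 and 609 FPKM in uncrushed wells. Thinned to 50000 reads, it was found in 8 of 24 day 4 and 28 of 39 uncrushed wells. The ranges overlap, and the highest wells are uncrushed. Its difference was -1.82, and -1.47, -1.61 and -6.79 within plates 1, 2 and 3.

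Rps9 (chr7:3703993-3706897, plus strand) lies at the entry of the messenger RNA channel, next to Rps2. It ran from 0.994 to 902 FPKM at day 4 (median 169) and from 3.51 to 5188 in uncrushed wells (median 549). The ranges overlap, and the highest day 4 well lies far below the highest uncrushed well. The difference was -1.71, the ratio of means -2.02, and the plate values -2.13, -0.74 and -5.04. In deep wells with all 11 microglia markers the difference was 0.07.

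Rpl37a of the large and Rps29 of the small subunit, both among the highest core genes, differed by -1.20 and -1.04, with ratios of means of -1.71 and -1.47. Rps29 ran from 0 to 1941 FPKM at day 4 (median 263) and from 0.924 to 9047 in uncrushed wells (median 772), with overlapping ranges. Rps27, Rps9 and Rps29 were lower within all 3 plates, whereas Rpl37a was 0.49 higher at day 4 on plate 1. On plate 3, where day 4 has 2 deep wells, the core median difference was -3.96. A lower value there therefore does not set these genes apart.

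**Figure D4:**
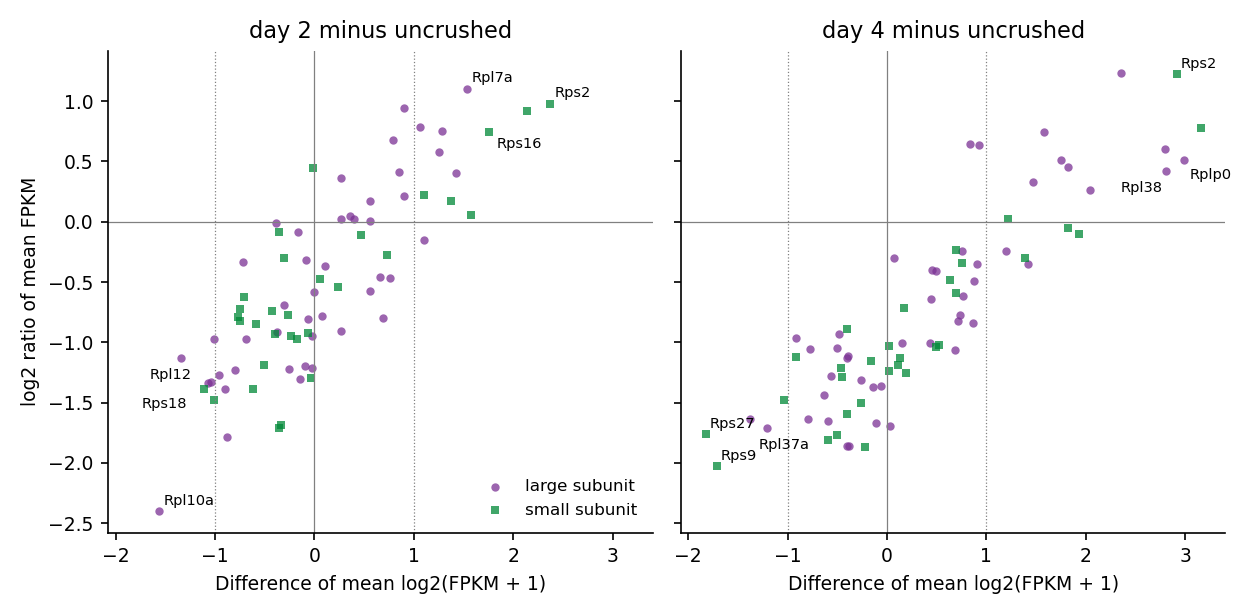
Each of the 77 core genes by its difference of mean log2(FPKM + 1) (horizontal axis) and its log2 ratio of mean FPKM (vertical axis) for day 2 (left) and day 4 (right) minus uncrushed retina. Dotted lines mark differences of -1 and 1. At day 4 most points lie below 0 on the vertical axis, with a median of -1.003, while 46 of 77 lie above 0 on the horizontal axis.

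At day 2, 12 of 77 core genes were higher than in uncrushed retina by 1 or more (15.6%), against 16% of all genes tested and 34% of genes at a like level, and 7 were lower (9.09%), against 1.25% of all genes tested and 5.74% of genes at a like level. The median core difference was -0.06, against 0.31 over all genes tested. Rps2 was high here as at day 4, but both comparisons share the uncrushed wells. It ran from 0 to 1284 FPKM at day 2 (median 167) and differed by 2.37, with a ratio of means of 0.98. Rps16 differed by 1.75 and Rpl7a by 1.54. Rps2 and Rps16 were higher within every plate, and Rpl7a was not, at 0.25, -0.09 and 3.05.

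The lowest at day 2 was Rpl10a, which forms the mobile L1 stalk of the large subunit. It ran from 0 to 376 FPKM at day 2 (median 0.787) and from 0 to 3616 in uncrushed wells (median 29.6), and differed by -1.56. Its mean was below that of uncrushed wells on all plates, the ranges overlap, and it was found in 11 of 25 day 2 and 22 of 39 uncrushed wells. Rps18 differed by -1.11, Rpl12, near the stalk base, by -1.07 and Rpl39, in the wall of the exit tunnel, by -1.04. With all 11 microglia markers, Rps18 differed by 1.39 and Rpl10a by 0.50, so neither was lower there, and Rps18 differed by 0.26 with at least 6 markers and by 0.021 without plate 3. Without wells holding 3 or more neutrophil or rod markers, 0 core genes were lower by 1 or more at day 2. In the wells kept, 34 were higher, and the core median was 0.82, against 0.43 over all genes tested. Shares of all genes past 1 are not given for this setting. Both kinds of well were left out together, and the part of either in the result was not tested. Uncrushed wells rich in microglia markers were among those left out. The number lower was 19 without plate 1 and 11 without plate 3, where the median over all genes tested was 0.18 and 0.33.

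Day 4 minus day 2 gave 14 of 77 core genes higher by 1 or more (18.2%, against 17.4% of all genes tested and 22.3% of genes at a like level) and 4 lower (5.19%, against 1.73% of all genes tested and 4.26% of genes at a like level). The direction depended on the wells and the scale. Without wells holding 3 or more neutrophil or rod markers, among them the day 4 well at 6.04%, 2 core genes were higher and 14 lower. The core median was -0.25, against 0.40 over all deep wells, while the median over all genes tested was 0.26 and 0.31. With all 11 microglia markers, 3 core genes were higher and 0 lower, and by the ratio of means 0 were higher and 10 lower. Without plates 1, 2 and 3 in turn, the median over all genes tested was 0.44, 0.05 and 0.45. Shares of all genes past 1 are not given for these settings. Of the core genes, 23, 7 and 26 were then higher and 7, 15 and 2 lower. The highest were Rpl38 at 1.96, Rps15 at 1.93, Rplp0 at 1.89, Rpl26 at 1.52 and Rpl6 at 1.38. The lowest were Rps9 at -1.77, Rps27 at -1.65, Rpl10 at -1.28, Rps16 at -1.12 and Rplp2 at -0.84. Rps9 ran from 0.994 to 902 FPKM at day 4 and from 24.2 to 4812 at day 2, where it was found in all 25 wells. Rps16, with a median of 97.4 FPKM at day 4, 197 at day 2 and 11.4 in uncrushed wells, was the 1 gene named both as high at day 2 and as low after it.

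Values differed among genes of the same ribosomal structure, and the differences among them were not tested. In the stalk, Rplp0 differed by 2.99 and Rplp1 by 0.84 at day 4 against uncrushed retina, while Rplp2, the partner of Rplp1, differed by -0.92. Rplp1 held 551 FPKM at day 4 and 1020 in uncrushed wells by median, and 1 day 4 well reached 34328 FPKM. Rpl5 and Rpl11, which bind the 5S ribosomal RNA and also the p53 regulator Mdm2, differed by 0.75 and -0.11. Of 8 genes of the exit tunnel and its rim, 3 were higher by 1 or more and 0 lower, from Rpl26 at 2.80 to Rpl39 at -0.78. Of 16 genes mutated in human Diamond-Blackfan anaemia, 5 were higher and 1 lower, from Rpl26 at 2.80 to Rps29 at -1.04. By subunit, 11 of 46 large and 6 of 31 small subunit genes were higher at day 4, and 2 and 3 were lower. Beside these counts, 34.3% of all genes tested were higher and 0.962% lower, and 46.5% and 5.07% of genes at a like level. For day 4 minus day 2, all 8 exit tunnel genes and both 5S genes lay above 0, as did 52 of the 77 core genes. The median over all genes tested was 0.31 in that comparison. By the ratio of means, 5 of 8 exit tunnel genes and 1 of 2 5S genes lay above 0.

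Per length, levels ranged widely among the core genes. The mean log2(FPKM + 1) over the 88 deep wells ran from 2.67 to 8.87 over the 77 genes, with a median of 5.37. Among the highest were Rplp1, Rps29, Rpl37a, Rps9 and Rpl41, and the lowest were Rps15a, Rpl22, Rps24 and Rpl29. Rplp1 had medians of 1020, 802 and 551 FPKM in uncrushed, day 2 and day 4 wells, and Rps15a had 2.82, 1.02 and 10.3 FPKM. Of the high genes named, Rps29 and Rpl37a had lower mean log2(FPKM + 1) on both days than in uncrushed wells, Rps9 had a lower one at day 4, and Rplp1 and Rpl41 had higher ones on both days. The medians of Rplp1 and Rpl41 were lower on both days, and the log2 ratios of means at day 2 were 0.0040 for Rplp1 and -0.57 for Rpl41. Each of the 77 was found in 40 to 81 of the 88 deep wells.

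Read sharing bears on these levels. Sequence comparison found 649 other genes in the table with at least 95% identity to a core gene over at least 100 bases, for 75 of the 77 core genes. They held 39.1%, 39.5% and 40.3% of the reads of core genes and copies together by median in uncrushed, day 2 and day 4 wells. With their reads added, the family took 8.07 ± 5.83%, 5.50 ± 4.08% and 4.51 ± 2.28% of reads, the same order as before. Rpl21 had 60 copies, and Rpl41 had none. Rpl8 had whole read numbers in 85.1% of its values. Rpl8, in the peptide bond centre, had medians of 202 FPKM at day 4 and 15.9 in uncrushed wells and differed by 1.47.

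Rps27 and its copies show both sides of this. Rps27rt, with the same coding sequence, followed Rps27 in every group: by median it held 25.2% of the pair's reads in uncrushed, 25.01% in day 2 and 24.7% in day 4 wells, and 15.5% to 31.8% over all wells with 10 reads of the pair. Its difference at day 4 was -2.02, but its level cannot be told apart from that of Rps27. Rps27l, a paralog induced by p53 in human cells, went the other way. It was listed at 0 in most uncrushed and day 2 wells (medians 0), with highest values of 1013 and 2175 FPKM, and ran from 0 to 2099 FPKM at day 4 (median 254). Rps27l was found in 15 of 24 day 4 wells (62.5%, 40.6 to 81.2), 9 of 25 day 2 wells and 10 of 39 uncrushed wells (25.6%, 13.04 to 42.1). Thinned, these were 12, 5 and 7 wells. Its difference was 2.95 for day 4 minus uncrushed, at 1.20, 6.66 and -3.31 within plates, and 2.75 in wells with all 11 microglia markers. In 14 of the 15 day 4 wells with Rps27l, Rps27 was found as well.

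**Figure D5:**
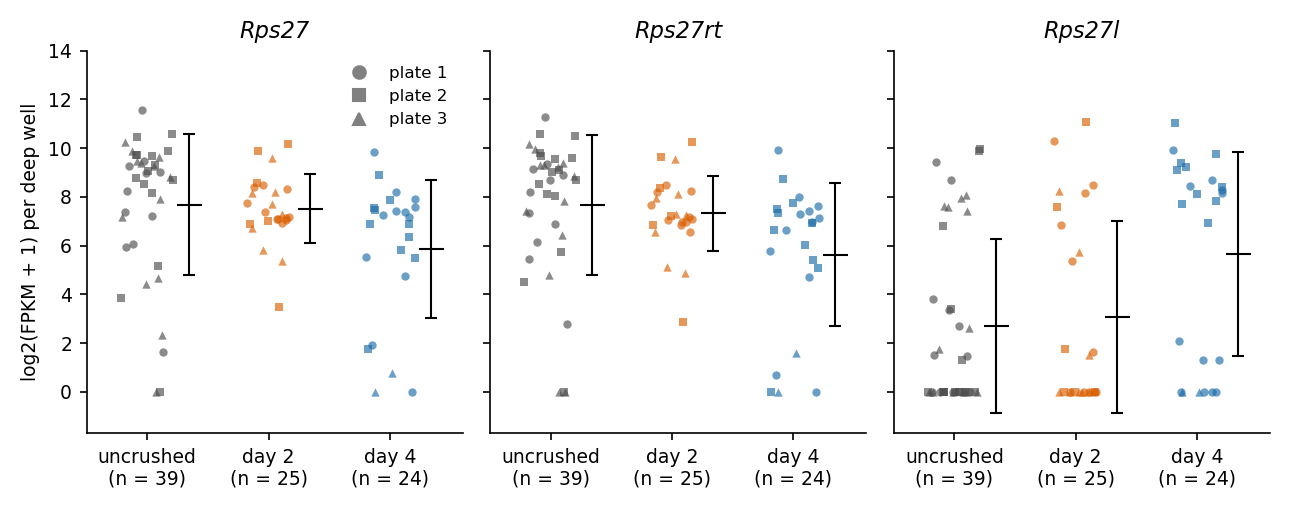
log2(FPKM + 1) per deep well of Rps27, its copy Rps27rt and its paralog Rps27l, by group, with plates as marker shapes and the mean ± SD over wells. Rps27 and Rps27rt show the same pattern and are lower at day 4, while Rps27l was found in 15 of 24 day 4 wells, 9 of 25 day 2 wells and 10 of 39 uncrushed wells.

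Other paralogs were sparser. Rpl36al, a paralog of Rpl36a, had medians of 66.3 FPKM at day 4 and 0.393 in uncrushed wells, differed by 2.47 and was found in 16 of 24 and 11 of 39 wells, but in 5 and 5 after thinning. Rpl22l1, a paralog of Rpl22, was found in 8 of 24 day 4 and 5 of 39 uncrushed wells, but in 2 and 1 after thinning. Rpl7l1 was found in 10 and 4, and in 4 and 2 after thinning. Rps19bp1 was found in 8 and 2 without thinning. Of all genes tested, 85.2% were found in a larger share of day 4 wells, and 43.3% after thinning. Rps23rg1, a retrocopy of Rps23, differed by -0.76, and Rpl3l was found in 1 uncrushed well only. The remaining 2 paralogs and retrocopies, Rpl10l and Rpl39l, were found in 0 deep wells.

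The S6 kinase genes met by the rule encode enzymes that phosphorylate Rps6 and other targets, and are no ribosomal proteins. Rps6ka1 was the most often found, in 10 of 24 day 4, 7 of 25 day 2 and 10 of 39 uncrushed wells. Rps6kb2 was found in 7, 6 and 6 wells, Rps6ka4 in 5, 3 and 1 and Rps6kb1, the S6 kinase downstream of TOR, in 4, 2 and 2. Rps6ka3 was found in 5 deep wells in all, Rps6ka2 and Rps6kc1 in 2 each, and Rps6ka5 and Rps6kl1 in 1 each. Rps6ka6 was found in none. These counts are without thinning, and the summed share of reads of the 10 kinase genes was 0.0509% in uncrushed, 0.0220% in day 2 and 0.0258% in day 4 wells. Outside the rule, Fau had medians of 195 FPKM at day 4, 326 at day 2 and 406 in uncrushed wells and differed by -1.11 at day 4.

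Other genes of ribosome building and translation are given for comparison. Of 30 ribosome biogenesis genes tested, 22 were higher by 1 or more at day 4 than in uncrushed retina and 0 were lower, with a median of 1.30 and a median ratio of means of 1.20. At day 2, 3 of 30 were higher, against 16% of all genes tested. The largest differences at day 4 were Nhp2 at 3.84 and Nop10 at 3.41, both proteins of the particles that convert uridines of ribosomal RNA to pseudouridine, and the lowest were Wdr43 at 0.30 and Ubtf at 0.62. Of 33 translation factor genes, 18 were higher at day 4 and 0 lower, with a median of 1.12. On the ratio of means their median was 0.22, against 0.30 over all genes tested, and 19 of 33 lay above 0. Eif5a, which aids elongation through proline runs, led at 4.45, followed by Eif2s1 at 2.81, while Eef1a1 differed by -0.48 and Eef2 by -0.06. Of 15 genes of TOR and S6 kinase signalling, 8 were higher, with a median of 1.05 and a median ratio of means of 1.38, led by Lamtor5 at 2.59 and Lamtor4 at 2.17, with Pdcd4 at 0.18 and Rps6kb2 at 0.28 the lowest. Of 19 other genes with TOP messenger RNAs, 8 were higher, led by Naca at 2.48 and Hnrnpa1 at 2.43, and 1, Fau, was lower, with a median of 0.53 and a median ratio of means of -0.72. The day 4 counts stand beside 34.3% of all genes tested that were higher and 0.962% that were lower. Among genes at or above the level of the lowest core gene, 46.5% were higher and 5.07% lower. A gene with a mean log2(FPKM + 1) under 1 in uncrushed wells could not be lower by 1. This held for Nhp2 (0.60), Nop10 (0.63), Wdr43 (0.63), Ubtf (0.56) and Eif2s1 (0.52), but not for Eif5a (3.18) or Lamtor5 (1.68). The filter pools the groups, so a gene can pass on its day 4 wells alone. Before the filter the lists held 45 ribosome biogenesis, 35 translation factor, 26 TOR and S6 kinase and 19 other TOP genes. The lists were not tested.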

How the data were processed

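The values are FPKM per gene and well, deposited by the authors as 1 table of 144 wells. Per the submitters' processing notes, the tools were STAR 2.7.2b, featureCounts 1.6.1, cutadapt 1.16, Trimmomatic 0.36 and Trim Galore 0.4.4, and the build was GRCm38.p6, also called mm10. Per the labels' protocols, cDNA of each lysed cell was amplified and tagmented with the Nextera XT kit. No molecular identifiers are mentioned, so reads are not independent molecules. FPKM times exon length in kilobases summed to 1000000 in each well. The most frequent product above 0 was taken as 1 read, which gave the depth. Of values under 100 reads, 40.9% were whole within 0.01, and the others were fractions, so no count test was run.

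Wells were grouped by title, and deep wells had at least 50000 reads. The difference is that of mean log2(FPKM + 1) over deep wells, with 1 as the threshold. Genes tested reached FPKM 1 in no fewer than 10% of deep wells, and all 77 core genes passed. No gene of the mitochondrial genome was analysed here. Copies were found with BLAST 2.17.0. Named genes were the 5 highest and 5 lowest core differences of each comparison, the 6 highest and 4 lowest levels, the 5S and stalk proteins, members outside the core found in a deep well, and the 2 highest and 2 lowest genes of each further list. Some genes under this rule are not reported here. Rpl8, Rpl15 and Rpl21 were named after their values were seen. The members and lists were chosen with earlier results of these data known. Alternatives covered wells, depth, pseudocount, filter, scaling and plates. The calculation was run on simulated data with known changes, drawn from the same uncrushed deep wells for both groups. Differences between groups in depth or cell mix were not simulated. The software was pandas 2.3.3, numpy 2.4.6, scipy 1.17.1 and matplotlib 3.10.9 under Python 3.11.15.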

Additional observations from a re-analysis of the deposited data

How the results depend on the processing

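No paired analysis was possible because no label pairs wells of different groups, and the replicate numbers only name wells. Of the recomputed summary values, 193 stayed within the spread over wells or 1.5 times the count, and 44 did not. For the genes named by difference, 20 values changed sign where the main difference was 1 or more in size. The other 430 lay within the SD over wells of the main value. These can include a change of sign where the main difference was under 1 in size. Some values could not change in some settings. All 77 core genes passed the filter, and no filter setting alters the difference of a named gene. The day 4 wells of plate 1 do not enter day 2 minus uncrushed. The counts of 193 and 430 include such values, so they are no measure of stability. The cause of the changes was not tested. Every count below is of core genes.

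For day 2 minus uncrushed, 12 were higher and 7 lower. The count higher was 2 over all wells, 34 without neutrophil or rod wells, 20 with at least 6 microglia markers, 1 by the ratio of means and 20 without wells holding under 10 core genes. The count lower was 3, 0, 3, 19 and 1 in the same settings and 15 in shallow wells. Leaving out 1 plate gave 9 to 16 higher and 6 to 19 lower. For day 4 minus uncrushed, 17 were higher and 5 lower. The count higher was 7 over all wells, 26 with at least 6 microglia markers and 2 by the ratio of means. The count lower was 10 in shallow wells, 8 without the day 4 wells of plate 1, 39 by the ratio of means and 3 without wells holding under 10 core genes. Leaving out 1 plate gave 16 to 32 higher and 2 to 21 lower. The share of reads differed by 0.58 percentage points in shallow wells. For day 4 minus day 2, 14 were higher and 4 lower. The count higher was 6 over all wells, 2 without neutrophil or rod wells, 8 with at least 6 and 3 with all 11 microglia markers, 22 with a pseudocount of 0.1, 0 by the ratio of means and 9 without wells holding under 10 core genes. The count lower was 10 in shallow wells, 14 without neutrophil or rod wells, 8 without the day 4 wells of plate 1, 10 by the ratio of means, 0 with all 11 microglia markers and 7 without wells holding under 10 core genes. Leaving out 1 plate gave 7 to 26 higher and 2 to 15 lower.

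In shallow wells, day 2 minus uncrushed was -0.070 for Rps2, -1.05 for Rps16, -0.86 for Rpl7a, 1.41 for Rpl10a, 0.39 for Rpl12 and 1.71 for Rpl39. Day 4 minus uncrushed was -0.52 for Rps2, 0.43 for Rps27, 0.80 for Rpl37a and 0.63 for Rps29, and day 4 minus day 2 was 0.17 for Rps27 and 0.67 for Rps16. With all 11 microglia markers, day 2 minus uncrushed was 0.50 for Rpl10a and 1.39 for Rps18, day 4 minus uncrushed was 0.074 for Rps9, and day 4 minus day 2 was -0.48 for Rpl6 and 0.46 for Rps9. Rps18 at day 2 was 0.26 with at least 6 microglia markers, and leaving out 1 plate gave -2.91 to 0.021. Rpl26 was -0.15 by the ratio of means for day 4 minus day 2. The ratio of means, added copy reads, wells with all 11 microglia markers and wells without under 10 core genes were chosen after seeing the data. No mitochondrial genes were analysed here, so that setting left out 20 other genes only. Depth limits genes near 10 reads per well.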
